A study of Macaca fascicularis with 4 samples.

Results

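The nuclear-encoded subunits of the respiratory chain and ATP synthase were examined in full-length RNA libraries of 4 tissues of the cynomolgus monkey (Macaca fascicularis). The members are all gene names in the count files that follow the naming pattern of these subunits: NDUFA, NDUFB, NDUFC, NDUFS or NDUFV with a number (complex I), SDHA to SDHD (complex II), UQCR names (complex III), COX4 to COX8 names (complex IV) and ATP5 names (complex V, the ATP synthase). The pattern found 50 of the 13982 genes named in the files, with 26 members in complex I, 2 in complex II, 3 in complex III, 5 in complex IV and 14 in complex V. Membership rests on the name alone, so that ATP5IF1, an inhibitor of the ATP synthase, is included, while CYC1, the cytochrome c1 subunit of complex III, is not.

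The tissues are liver, muscle, oWAT and sWAT. The last letters commonly stand for white adipose tissue, and the labels spell out neither fat depot. Each tissue is 1 library on the PacBio Sequel II platform, made from the RNA of 5 monkeys combined before library preparation, and the labels give no treatment, diet, age or sex. There is therefore no spread between animals to set a difference against, and every interval below covers counting error alone.

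The respiratory chain passes electrons from NADH through complex I, and from succinate through complex II, to ubiquinone. Complex III hands them on to cytochrome c and complex IV to oxygen, and complexes I, III and IV pump protons across the inner mitochondrial membrane. Complex V lets the protons return and makes ATP. Most subunits are encoded in the nucleus, a small set of core subunits of complexes I, III, IV and V is encoded in mitochondrial DNA, and all of complex II is nuclear. Skeletal muscle and liver are rich in mitochondria, and white fat cells hold comparatively little cytoplasm beside their lipid droplet.

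Gene counts totalled 437587 in liver and 439872 in muscle, with 396797 in oWAT and 383896 in sWAT. Levels are given as CPM, counts scaled to a library total of 1000000. A floor of 3 counts, used in place of 0 observed counts, equals 6.82 to 7.81 CPM at this depth. Defining markers followed the labels. The 8 hepatocyte markers summed to 189553 CPM in liver and to 38.6 to 805 CPM elsewhere, and the 8 myofibre markers to 106717 CPM in muscle and to 101 to 130 CPM elsewhere. The 8 adipocyte markers summed to 14247 CPM in oWAT, 15715 CPM in sWAT, 1005 CPM in muscle and 57.1 CPM in liver. Of 4 brown fat markers, UCP1, the uncoupling protein of brown fat, and DIO2 had no row in any library. CIDEA was found in the fat libraries alone, at 52.9 CPM in oWAT and 41.7 CPM in sWAT. PPARGC1A was highest in liver at 103 CPM and stood at 17.6 CPM in oWAT and 10.4 CPM in sWAT. Whether the fat libraries hold brown fat cells was not tested. The 5 mesothelial markers summed to 3780 CPM in oWAT and to 0 in muscle and sWAT.

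The members were thinly counted. They held 828 counts in liver and 1364 in muscle, with 656 in oWAT and 495 in sWAT, and 42, 41, 36 and 39 of the 50 were listed in these libraries. Of the members 29 were listed in all 4 libraries and 14 had at most 3 counts over all of them. Only 16 members, or 32.0%, reached 10 counts in a library, against 59.2% of all 13982 genes. The median member had 12.5 counts over the 4 libraries and the median gene 33.

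Depth was also unequal among complexes. At least 10 counts in a library were reached by 7 of 26 members of complex I, 2 of 2 of complex II, 1 of 3 of complex III, 0 of 5 of complex IV and 6 of 14 of complex V. In the RefSeq annotation of T2T-MFA8v1.1, 84 protein-coding symbols follow the same pattern. The files list 50 of them, 48 under the same symbol and ATP5MD and ATP5MPL under older names of ATP5MK and ATP5MJ. The other 34, among them SDHA and SDHC of complex II and COX4I1 and COX5A of complex IV, had no row in the files as analysed here and stand at 0 under the rule.

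Most accessory subunits of these complexes are small proteins with short mRNAs. Transcript length was not measured here, but another family of short and abundant mRNAs was thin in the same libraries. Of 46 cytosolic ribosomal protein genes named in the files, 7 (15.2%) reached 10 counts in a library, and the family summed to 436 CPM in liver and 509 in muscle, with 769 in oWAT and 742 in sWAT. The part of transcript length in the low member counts was not tested. Levels are accordingly compared between libraries for the same gene or the same set of genes, and ratios between genes are read only across libraries.

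**Figure D1:**
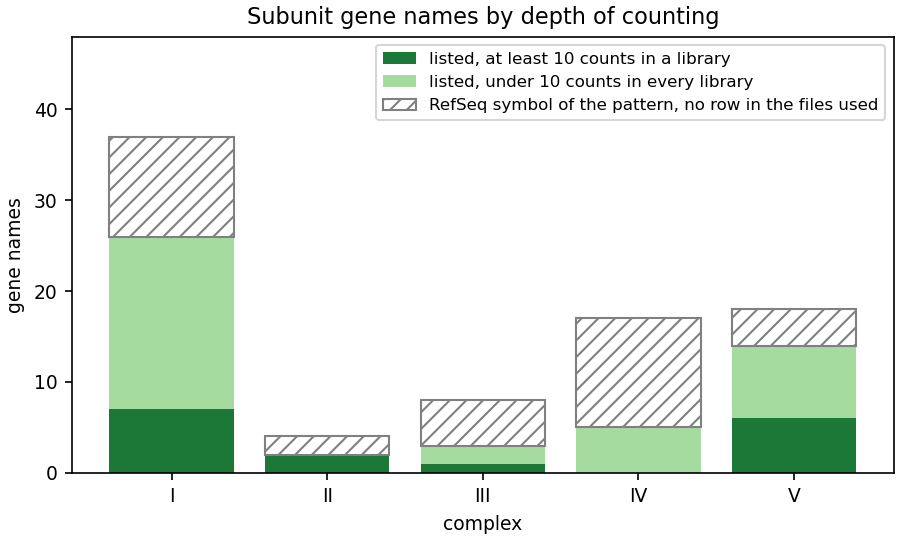
Number of gene names per complex, stacked as names with at least 10 counts in a library, names listed with fewer, and RefSeq symbols of the same pattern with no row in the files used. Complex IV has 5 listed names and 0 with at least 10 counts, and complex I has 26 listed names of which 7 reach 10 counts.

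Summed over all 50 members, muscle stood highest and sWAT lowest. The summed level was 3101 CPM in muscle (exact 95% Poisson interval 2939 to 3270), 1892 in liver (1765 to 2026), 1653 in oWAT (1529 to 1785) and 1289 in sWAT (1178 to 1408). Muscle was 1.64-fold above liver (exact 95% Clopper-Pearson interval 1.50 to 1.79), 1.88-fold above oWAT (1.71 to 2.06) and 2.40-fold above sWAT (2.17 to 2.67). Liver was 1.14-fold above oWAT (1.03 to 1.27) and 1.47-fold above sWAT (1.31 to 1.64), and oWAT was 1.28-fold above sWAT (1.14 to 1.44). A lower level in a bulk library can come, among other sources, from fewer mitochondria-rich cells or from less of these mRNAs per cell, and these cannot be told apart here. CPM also depends on how much of the library total other genes take, and ALB alone had 140578 CPM in liver. Markers of other cell types also differed between the libraries. The 5 endothelial markers, each listed in all 4 libraries, summed to 3801 CPM in sWAT, 2150 in oWAT, 1041 in muscle and 283 in liver, and the 5 macrophage markers to 1131, 1484, 432 and 585 CPM. Their part in the member levels was not tested.

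These sums lean on the most counted genes. ATP5F1A held 1262 of the 3343 member counts, or 37.8% (36.1 to 39.4). Without it muscle remained 1.50-fold above liver (1.34 to 1.68), 1.67-fold above oWAT (1.48 to 1.88) and 2.03-fold above sWAT (1.78 to 2.31). The difference between liver and oWAT fell to 1.11 (0.977 to 1.27), an interval that takes in 1.

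The median gene also differed between these libraries. Among genes with 10 or more counts in the 2 compared libraries together, the median log2 ratio of muscle to liver was 0.51 over 18 members and 0.50 over 7967 genes. Against oWAT it was 0.26 over 22 members and -0.54 over all genes, and against sWAT 1.11 over 17 members and -0.37 over all genes. Liver over oWAT gave 0.087 for 19 members and -0.93 for all genes, and liver over sWAT 0.34 and -0.72. In the comparison of muscle with liver the median member was thus placed where the median gene was, and in the comparisons of muscle or liver with fat the median member stood above it.

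**Figure D2:**
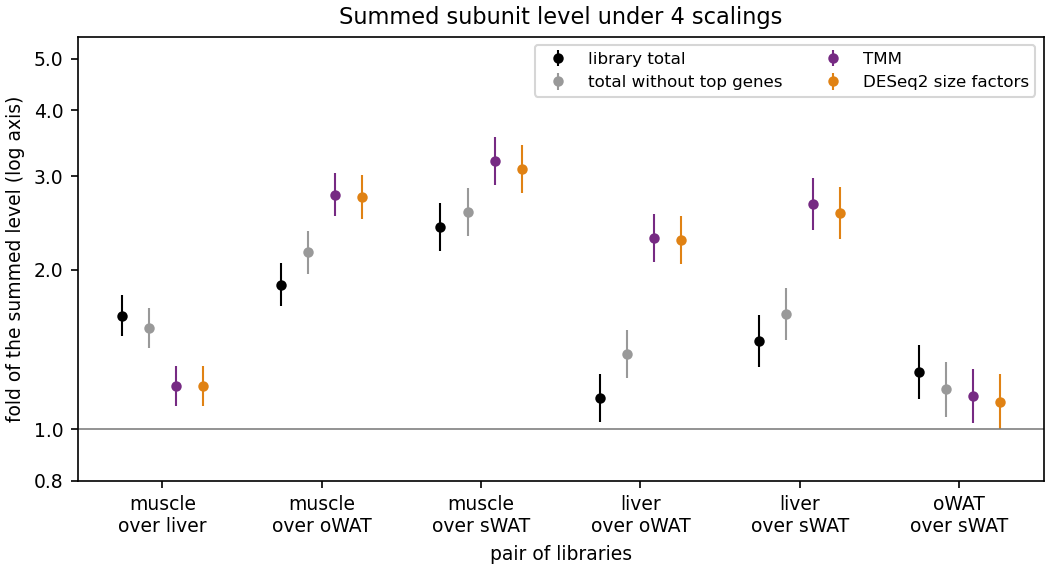
Fold of the summed level of the 50 members for each pair of libraries on a log axis, with exact 95% intervals as bars, under 4 scalings of the libraries (library total, total without the most abundant genes, TMM and DESeq2 size factors). The muscle over liver fold goes from 1.64 to 1.21 with TMM, while liver over oWAT goes from 1.14 to 2.30, and all points lie above 1.

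Scaling by TMM factors, which centre the bulk of genes, moved every log2 ratio of muscle to liver by -0.44, of muscle to oWAT by 0.56 and of liver to oWAT by 1.01. The summed fold of muscle over liver became 1.21 (1.11 to 1.32) and that of liver over oWAT 2.30 (2.07 to 2.55). The order of the 4 libraries was the same under library totals, TMM and DESeq2 scaling, as the plot of folds by scaling shows.

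Complex I, the NADH dehydrogenase, was higher in muscle than in the other libraries, among which all 3 ratios had intervals that took in 1 with library totals, while with TMM scaling only oWAT over sWAT did. Its 26 members summed to 850 CPM in muscle (766 to 941), 478 in liver (415 to 547), 491 in oWAT (425 to 565) and 443 in sWAT (379 to 515). The muscle level was 1.78-fold that of liver (1.50 to 2.12), 1.73-fold that of oWAT (1.45 to 2.07) and 1.92-fold that of sWAT (1.60 to 2.32). Liver over oWAT was 0.972 (0.796 to 1.19), a ratio that became 1.95 (1.60 to 2.38) with TMM scaling, and liver over sWAT likewise moved from 1.08 (0.877 to 1.33) to 1.95 (1.59 to 2.40).

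NDUFS1, which carries iron-sulfur clusters in the peripheral arm of complex I, was its most counted member at 70 counts in liver and 127 in muscle, with 54 in oWAT and 50 in sWAT. Muscle was high at 289 CPM against 130 to 160 CPM, while with TMM scaling muscle over liver was 1.33 (0.985 to 1.80), liver over oWAT 2.36 (1.63 to 3.43) and liver over sWAT 2.22 (1.52 to 3.26). The muscle level was 1.80-fold that of liver (1.34 to 2.45), 2.12-fold that of oWAT (1.53 to 2.97) and 2.22-fold that of sWAT (1.59 to 3.14). NDUFV1, the subunit that binds FMN and takes electrons from NADH, had 30, 45, 25 and 22 counts in the same order of libraries. Its muscle level was 1.79-fold that of sWAT (1.05 to 3.12), while the intervals against liver (0.92 to 2.45) and oWAT (0.975 to 2.76) took in 1, the latter becoming 2.40 (1.44 to 4.08) with TMM scaling. The ratio of NDUFS1 to NDUFV1 counts was 2.16 to 2.82 in the 4 libraries with overlapping intervals.

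Among the accessory subunits of complex I, NDUFA5 had 29 counts in liver and 52 in muscle, with 12 in oWAT and 21 in sWAT. It was 3.91-fold higher in muscle than in oWAT (2.06 to 8.05), 1.78-fold higher than in liver (1.11 to 2.91) and 2.16-fold higher than in sWAT (1.28 to 3.78). NDUFB5, a subunit of the membrane arm, had 5, 23, 6 and 7 counts and was 4.58-fold higher in muscle than in liver (1.70 to 15.4), 3.46-fold higher than in oWAT (1.37 to 10.4) and 2.87-fold higher than in sWAT (1.19 to 7.91). NDUFC2, also of the membrane arm, had 1, 11, 4 and 5 counts. Its muscle to liver ratio of 10.9 rests on that 1 liver count and has an interval of 1.59 to 471.

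NDUFA9, also an accessory subunit, had 20 counts in liver and 31 in muscle, with 22 in oWAT and 19 in sWAT, and the intervals of all 6 ratios took in 1, while with TMM scaling muscle over oWAT was 1.88 (1.05 to 3.405) and muscle over sWAT 1.90 (1.04 to 3.55). NDUFA10 had 26, 33, 30 and 13 counts. With library totals its intervals took in 1 for muscle over liver (0.732 to 2.20), muscle over oWAT (0.587 to 1.68) and liver over oWAT (0.446 to 1.37). This does not show that these levels are equal, and TMM scaling moves every log2 ratio of liver to oWAT by 1.01. Muscle stood 2.22-fold (1.14 to 4.59) and oWAT 2.23-fold above sWAT (1.13 to 4.66), while the interval of liver over sWAT took in 1 (0.870 to 3.72). With DESeq2 scaling the interval of oWAT over sWAT took in 1 (0.994 to 4.10).

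The other 19 members of complex I had under 10 counts in every library. NDUFV3 came closest with 8, 9, 7 and 9 counts. NDUFS7 (3, 8, 7 and 2), NDUFS3 (3, 6, 3 and 3) and NDUFS8 (1, 5, 4 and 2), core subunits of the peripheral arm, had their largest count in muscle, but the numbers are too small to rank the tissues. NDUFB2 had 1, 5, 5 and 2 counts and NDUFB6 1, 5, 5 and 3. NDUFA8, NDUFB10, NDUFA11, NDUFB7, NDUFB9, NDUFA2, NDUFB4, NDUFS4, NDUFC1, NDUFA12, NDUFS5, NDUFA1 and NDUFA7 had 0 to 3 counts in each library.

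Complex II, succinate dehydrogenase, was the only complex whose summed level was highest in liver. Its 2 listed members summed to 119 CPM in liver (88.8 to 156), 77.3 in muscle (53.5 to 108), 52.9 in oWAT (32.8 to 80.9) and 39.1 in sWAT (21.9 to 64.4). Liver was 2.25-fold above oWAT (1.33 to 3.92) and 3.04-fold above sWAT (1.69 to 5.82). Muscle over liver was 0.65 (0.409 to 1.02), which takes in 1, and 0.479 (0.301 to 0.752) with TMM scaling.

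SDHD, a membrane anchor of complex II, carried that pattern at 41 counts in liver and 30 in muscle, with 13 in oWAT and 11 in sWAT. Liver and muscle lay above both fat libraries, and muscle over liver, at 0.728 (0.439 to 1.19), became 0.536 (0.323 to 0.879) with TMM scaling. Liver was 2.86-fold above oWAT (1.50 to 5.82) and 3.27-fold above sWAT (1.65 to 7.05), and muscle was 2.08-fold above oWAT (1.05 to 4.35) and 2.38-fold above sWAT (1.16 to 5.26). SDHB, the iron-sulfur subunit, had 11, 4, 8 and 4 counts, and none of its 6 intervals left out 1, while with TMM scaling muscle over liver was 0.266 (0.0618 to 0.899) and liver over sWAT 4.37 (1.29 to 18.8). The succinate dehydrogenase values are therefore those of SDHD in the main, which held 77.9% of the complex's counts (69.5 to 84.9).

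**Figure D3:**
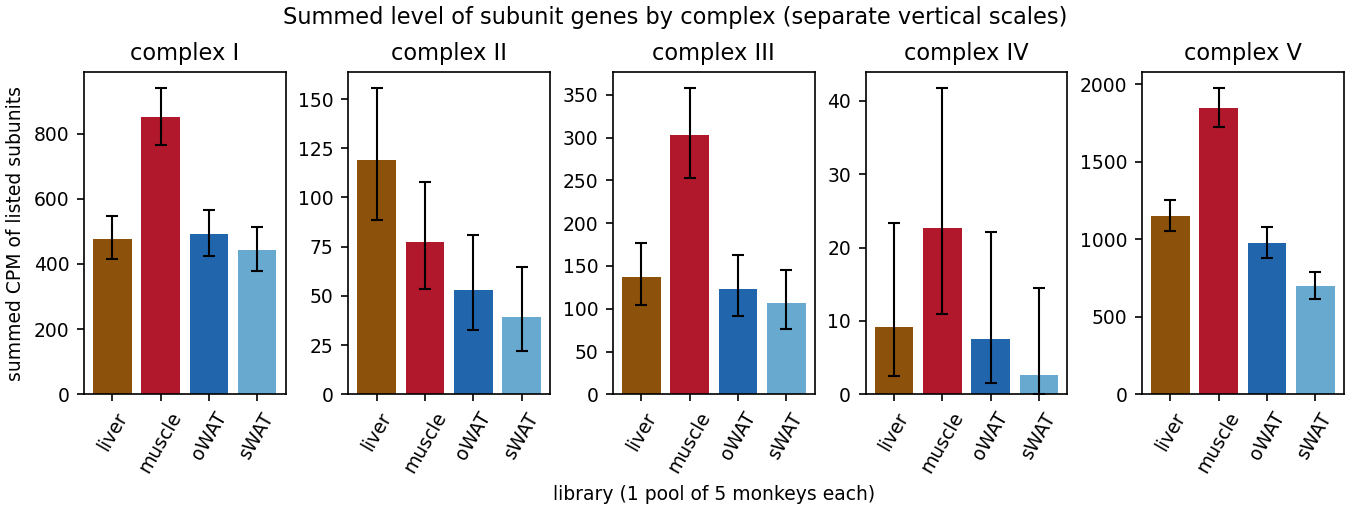
Summed CPM of the listed subunits of each complex in the 4 libraries, 1 panel per complex with its own vertical scale from 0, and exact 95% Poisson intervals as bars. Muscle is the tallest bar for complexes I, III, IV and V, liver is the tallest for complex II, and the bars of complex IV rest on 1 to 10 counts.

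Complex III was represented by UQCRC1. This core subunit held 92.6% of the counts of its complex (88.9 to 95.3) and had 49 counts in liver and 129 in muscle, with 46 in oWAT and 38 in sWAT. Muscle stood apart at 293 CPM against at most 116 CPM. The other libraries had ratios whose intervals took in 1, while with TMM scaling liver was 1.94-fold above oWAT (1.27 to 2.97) and 2.05-fold above sWAT (1.31 to 3.21). The muscle level was 2.62-fold that of liver (1.87 to 3.72), 2.53-fold that of oWAT (1.79 to 3.62) and 2.96-fold that of sWAT (2.05 to 4.37). The small subunits did not share this pattern. UQCRB, which takes part in ubiquinone binding, had 7, 2, 3 and 3 counts, and UQCRQ 4, 2, 0 and 0. Without UQCRC1 the complex had 11 counts in liver and 4 in muscle, a muscle to liver ratio of 0.362 (0.084 to 1.22).

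Complex IV, cytochrome c oxidase, was all but absent from the counts. It had 4 in liver and 10 in muscle, with 3 in oWAT and 1 in sWAT over 5 members. Subunits 6A and 7A of this complex have isoforms of heart and skeletal muscle, COX6A2 and COX7A1. COX6A2 had 6 counts in muscle and 0 in the other 3 libraries, at least 1.99-fold higher than in liver, 1.80-fold than in oWAT and 1.75-fold than in sWAT when the floor of 3 counts stands in for 0. The exact intervals of these ratios start lower, at 1.17, 1.06 and 1.03. Its paralog COX6A1, expressed in most tissues, had 2 counts in liver, 3 in oWAT and 0 in muscle and sWAT. COX7A1 had 1 count, in muscle. COX7B had 2 in liver and 3 in muscle, and COX8A had 1, in sWAT. COX6A1 and COX6A2 were thus listed in different libraries, at counts that do not reach the minimum of 10.

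Complex V held the most counts of the 5 complexes in each library, and its summed level ran in the order muscle, liver, oWAT and sWAT. It reached 1848 CPM in muscle (1723 to 1980), 1149 in liver (1051 to 1254), 978 in oWAT (883 to 1080) and 698 in sWAT (617 to 787). Muscle was 1.61-fold above liver (1.44 to 1.80), 1.89-fold above oWAT (1.67 to 2.14) and 2.65-fold above sWAT (2.30 to 3.05). Liver was 1.65-fold above sWAT (1.42 to 1.92) and oWAT 1.40-fold above sWAT (1.20 to 1.64). ATP5F1A made up 64.0% of these counts (61.8 to 66.1), and without it the muscle to liver ratio was 1.19 (0.986 to 1.45).

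The catalytic head of the ATP synthase is built from alternating alpha and beta subunits. ATP5F1A, the alpha subunit, had 304 counts in liver and 574 in muscle, with 229 in oWAT and 155 in sWAT. The intervals of all 6 ratios between libraries left out 1. It was 1.88-fold higher in muscle than in liver (1.63 to 2.17), 2.26-fold higher than in oWAT (1.94 to 2.65) and 3.23-fold higher than in sWAT (2.70 to 3.88). Liver exceeded oWAT by 1.20-fold (1.01 to 1.44), and oWAT exceeded sWAT by 1.43-fold (1.16 to 1.76).

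ATP5F1B, the catalytic beta subunit, kept the same order with 102, 141, 64 and 50 counts. Its muscle level was 1.38-fold that of liver (1.06 to 1.79), 1.99-fold that of oWAT (1.47 to 2.71) and 2.46-fold that of sWAT (1.77 to 3.47). With TMM scaling muscle and liver were level at 1.01 (0.779 to 1.32). The ratio of alpha to beta counts was 2.98 in liver (2.37 to 3.77), 4.07 in muscle (3.38 to 4.93), 3.58 in oWAT (2.70 to 4.80) and 3.10 in sWAT (2.24 to 4.35). These intervals overlap, and whether the ratios differ was not tested.

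A rotating shaft and a peripheral stalk join the head to the membrane part. ATP5F1C, the gamma subunit of the shaft, had 20 counts in liver and 23 in muscle, with 21 in oWAT and 17 in sWAT, or 44.3 to 52.9 CPM. ATP5PB, of the peripheral stalk, had 20, 26, 17 and 10 counts, and only muscle over sWAT left out 1 (2.27, 1.06 to 5.27), joined with TMM scaling by muscle over oWAT (2.04, 1.06 to 4.004), liver over oWAT (2.14, 1.07 to 4.35) and liver over sWAT (3.18, 1.42 to 7.60). ATP5MC3, which encodes the membrane ring subunit c, was highest in liver with 41, 24, 21 and 14 counts. Its liver level was 2.57-fold that of sWAT (1.37 to 5.10) and 1.77-fold that of oWAT (1.02 to 3.15), and its muscle level was 0.582 times that of liver (0.337 to 0.987). Its paralog ATP5MC2, which encodes the same mature protein, had 1 count each in liver and oWAT.

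ATP5F1E, the epsilon subunit, had 12 counts in oWAT and 6 in sWAT beside 1 in liver and 4 in muscle. Its muscle to oWAT ratio was 0.301 (0.071 to 0.992) and its liver to oWAT ratio 0.076 (0.0018 to 0.511). Both intervals took in 1 with TMM and with DESeq2 scaling. ATP5IF1, the inhibitor of the enzyme, had 2, 3, 6 and 5 counts and ATP5MPL 1, 4, 8 and 1. ATP5PD, ATP5PF, ATP5F1D, ATP5MG and ATP5MD had 0 to 6 counts in each library.

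**Figure D4:**
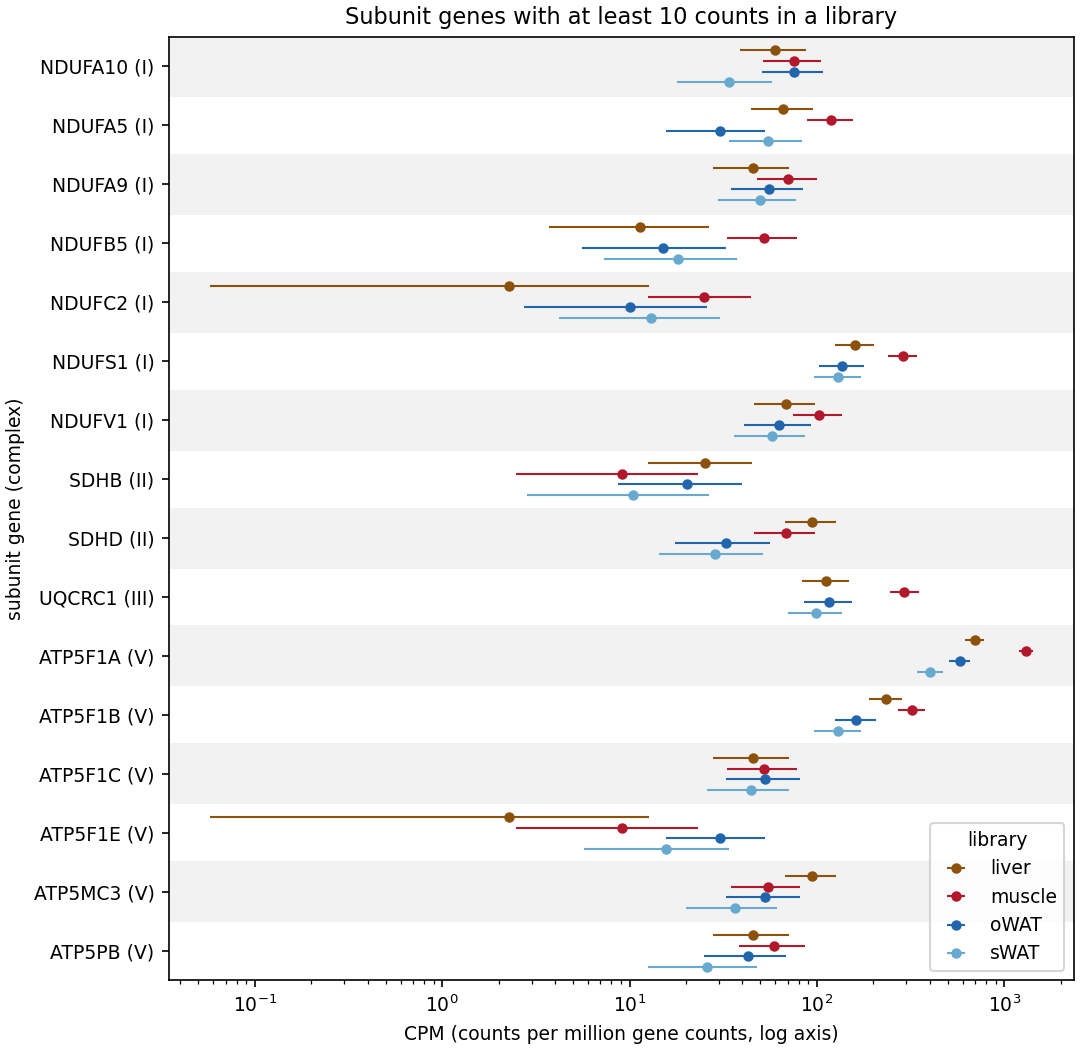
Level of each of the 16 members with at least 10 counts in a library, in CPM on a log axis, with 1 point per library and exact 95% Poisson intervals as bars (complex in brackets). Muscle is the rightmost point for NDUFS1, UQCRC1 and ATP5F1A, liver for SDHD and ATP5MC3, and oWAT for ATP5F1E.

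Over the 16 members with at least 10 counts in a library, muscle had the highest CPM for 10, liver for 3, oWAT for 3 and sWAT for 0. The lowest CPM was found in sWAT for 10, in liver for 4, in muscle for 1 and in oWAT for 1. This ranking used library totals alone and was not made for all genes. TMM scaling moves every log2 ratio of liver to oWAT by 1.01, so the places of liver and oWAT could change with the scaling. Members that reach 10 counts through 1 library alone, such as NDUFC2 and NDUFB5 in muscle, had to differ, so these numbers describe the 16 and not all members. The other 34 together had 133 CPM in liver (101 to 171), 198 in muscle (158 to 244), 181 in oWAT (142 to 229) and 138 in sWAT (103 to 181). Muscle was highest here too. These intervals overlap, which does not show that the levels are equal, and ratios between libraries were not computed for the 34.

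Few members were called higher by a wide margin with library totals. As the members are thinly counted, a missing call does not show that a difference is small. The call of a higher gene needed 10 or more counts on the higher side and an exact 95% interval of the fold that lay wholly above 2. NDUFB5 and NDUFC2 reach 10 counts in muscle alone, SDHB in liver alone and ATP5F1E in oWAT alone. Under this minimum they could be called only in that library, so their calls there are no support for its level. The same minimum was used for all genes. No member of 14 was called higher in muscle than in liver, where 23.0% of all genes were. Against oWAT 1 of 14 was called (NDUFA5), beside 8.30% of all genes, and against sWAT 2 of 14 (UQCRC1 and ATP5F1A), beside 9.23%. Liver had 0 of 13 called over muscle, oWAT and sWAT, beside 17.7%, 12.9% and 13.6% of all genes. In the opposite direction oWAT and sWAT had 0 members called over muscle (11.4% and 11.2% of all genes) or liver (25.8% and 24.2%), and between the fat libraries 0 were called, beside 1.43% of genes in favour of oWAT and 0.767% in favour of sWAT.

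These counts moved with the scaling. With TMM factors 6 of 14 members were called higher in muscle than in oWAT (NDUFA5, NDUFB5, NDUFS1, UQCRC1, ATP5F1A and ATP5F1B), beside 12.3% of all genes, and 4 of 14 higher than in sWAT, beside 12.5%. Liver then had 5 of 13 called over oWAT (20.5% of all genes) and 4 of 13 over sWAT (20.6%), SDHD, ATP5F1A, ATP5F1B and ATP5MC3 in both and NDUFA5 against oWAT alone. Muscle over liver had 0 of 14 called with either scaling, beside 16.1% of all genes with TMM factors.

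With a lower bound above 1 instead, the direction of many members was resolved. In muscle over liver 7 of 14 members passed, beside 48.1% of all genes, so that the share of members was near that of genes at large. Among these 7 were NDUFB5 and NDUFC2, which reach 10 counts in muscle alone. In muscle over oWAT 7 of 14 passed, beside 17.6%, and in muscle over sWAT 10 of 14, beside 21.2%. Liver over oWAT had 5 of 13 (20.5% of all genes) and liver over sWAT 4 of 13 (22.3%). The members higher in liver than in both fat libraries were SDHD, ATP5F1A, ATP5F1B and ATP5MC3. Between fat libraries NDUFA10 and ATP5F1A passed for oWAT, 2 of 13 beside 16.1%, and 0 of 12 passed for sWAT, beside 8.99%.

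In the opposite direction ATP5MC3 passed for liver over muscle (1 of 13, beside 29.0%), and ATP5F1E for oWAT over muscle (1 of 13, beside 42.0%) and over liver (1 of 13, beside 58.1%). No member of 12 passed for sWAT over muscle (37.8% of all genes) or over liver (52.6%). NDUFA5, NDUFB5, NDUFS1, UQCRC1, ATP5F1A and ATP5F1B were higher in muscle than in each other library, 6 of 14 beside 13.9% of all genes. Of these, NDUFB5 was tested only through its muscle count. ATP5MC3 was higher in liver than in each other library (1 of 13, beside 16.9%), and no member was in oWAT (0 of 13, beside 8.65%) or sWAT (0 of 12, beside 6.22%). With a bound of 2 no member was higher in 1 library than in each other one, beside 10.8% of all genes for liver and 6.71% for muscle, with 0.701% for oWAT and 0.434% for sWAT. With TMM scaling NDUFA5, NDUFS1 and ATP5F1B no longer passed against liver.

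**Figure D5:**
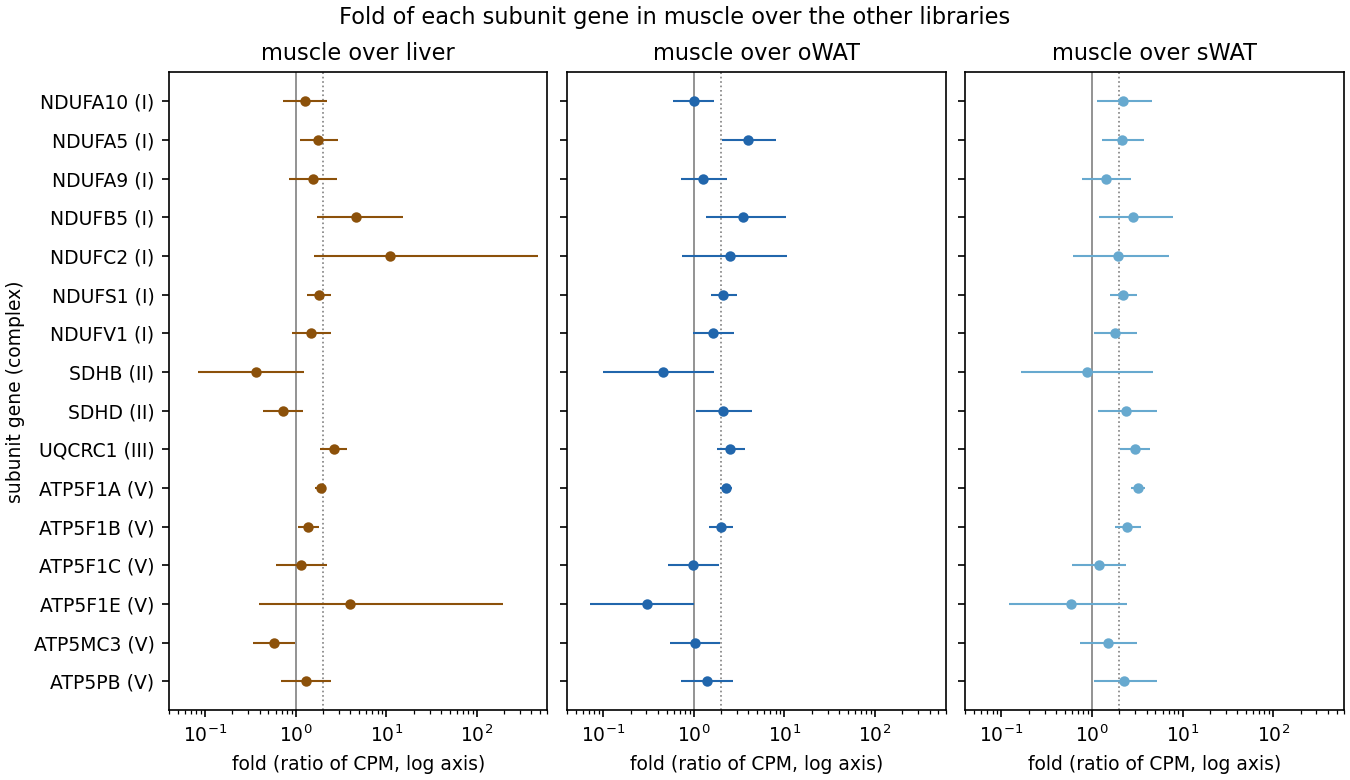
Fold of each of the 16 members in muscle over liver, oWAT and sWAT (ratio of CPM, log axis), with exact 95% intervals as bars, a solid line at 1 and a dotted line at 2. Only NDUFA5 against oWAT, and UQCRC1 and ATP5F1A against sWAT, have an interval wholly above 2, while SDHB, SDHD and ATP5MC3 lie below 1 against liver.

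The balance of complexes within a library does not depend on how libraries are scaled. Complex V took 60.7% of member counts in liver (57.3 to 64.1), 59.6% in muscle (56.9 to 62.2), 59.1% in oWAT (55.3 to 62.9) and 54.1% in sWAT (49.6 to 58.6). Complex I took 25.2% in liver (22.3 to 28.3), 27.4% in muscle (25.1 to 29.9), 29.7% in oWAT (26.2 to 33.4) and 34.3% in sWAT (30.2 to 38.7), so that the sWAT share lay above those of liver and muscle with intervals apart. Complex II took 6.28% in liver (4.73 to 8.15) and 2.49% in muscle (1.73 to 3.47), intervals that do not overlap, with 3.20% in oWAT and 3.03% in sWAT. Complex III took 7.25%, 9.75%, 7.47% and 8.28% in liver, muscle, oWAT and sWAT, with overlapping intervals.

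Some pairs of genes were also compared within each library, chosen after their values were seen. SDHD, which held most of the counts of complex II, per NDUFS1 was 0.586 in liver (0.388 to 0.873), 0.236 in muscle (0.153 to 0.354), 0.241 in oWAT (0.121 to 0.447) and 0.22 in sWAT (0.103 to 0.428). The liver and muscle intervals were apart. The liver interval overlapped both fat intervals, which does not show that these ratios are equal. ATP5MC3 per ATP5F1A was 0.135 in liver (0.0949 to 0.187) and 0.0418 in muscle (0.0266 to 0.0628), again apart, and 0.0917 in oWAT and 0.0903 in sWAT. UQCRC1 per NDUFS1 was 0.70, 1.02, 0.852 and 0.76 in liver, muscle, oWAT and sWAT, with overlapping intervals.

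Genes that feed or build the chain were compared with its subunits in the same libraries. The citric acid cycle enzymes, which supply NADH and succinate, summed to 3055 CPM in muscle, 1426 in liver, 1875 in oWAT and 1644 in sWAT over 13 listed genes. Muscle was highest here too, but liver was the lowest library, at 0.761 times oWAT (0.683 to 0.847). With TMM scaling that ratio was 1.53 (1.37 to 1.70), beside 2.30 for the respiratory chain members. Counts of members per count of these enzymes, a ratio free of scaling, were 1.33 in liver (1.19 to 1.47), 1.01 in muscle (0.941 to 1.09), 0.882 in oWAT (0.792 to 0.981) and 0.784 in sWAT (0.696 to 0.884). Liver had more subunit counts per enzyme count than the other 3 libraries, with intervals apart. Without ATP5F1A the ratio was 0.84 in liver (0.746 to 0.945) and at most 0.588 elsewhere, and without SUCLG2 among the enzymes 2.05 in liver (1.82 to 2.31) and at most 1.04 elsewhere. This ratio was computed after the values of both sets were seen.

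Of 11 enzymes with 10 counts in muscle 5 were called higher in muscle than in liver, beside 23.0% of all genes, and 3 with TMM scaling, beside 16.1%. In the opposite direction 1 of 11 was called with either scaling, beside 17.7% and 21.8% of all genes. OGDH, a subunit of the oxoglutarate dehydrogenase complex, had 78 counts in liver and 260 in muscle, with 198 in oWAT and 163 in sWAT. DLD, a dehydrogenase subunit shared by several complexes, had 53, 176, 70 and 60. CS, citrate synthase, had 25, 161, 78 and 61 and was 6.41-fold higher in muscle than in liver (4.19 to 10.2). All 3 were highest in muscle. SUCLG2, of the GTP-linked succinyl-CoA ligase, ran the other way with 220, 37, 32 and 35 counts, and muscle over liver was 0.167 (0.115 to 0.238).

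Of the electron entry and carrier genes 4 of 11 were called higher in muscle than in liver with either scaling. The shares of all genes were 23.0% and, with TMM scaling, 16.1%. In the opposite direction 1 of 10 was called, beside 17.7%, and 3 with TMM scaling, beside 21.8%. Over oWAT 4 of 11 were called higher in muscle, beside 8.30% of all genes. COQ8A, which supports ubiquinone synthesis, had 69 counts in liver and 557 in muscle, with 37 in oWAT and 54 in sWAT, 8.03-fold higher in muscle than in liver (6.24 to 10.5). COQ9, also of ubiquinone synthesis, had 31, 154, 39 and 30 counts, and GPD2, the mitochondrial glycerol-3-phosphate dehydrogenase, 9, 147, 22 and 26. The genes that pass electrons from fatty acid oxidation to ubiquinone had their largest counts in liver, with 65, 46, 37 and 14 for ETFA and 84, 29, 26 and 18 for ETFDH. Muscle over liver was 0.343 for ETFDH (0.217 to 0.529) and 0.704 for ETFA (0.472 to 1.04).

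CYC1, left out by the naming pattern, had 11 counts in liver and 33 in muscle, with 20 in oWAT and 15 in sWAT, 2.98-fold higher in muscle than in liver (1.47 to 6.55). Cytochrome c itself, CYCS, had 1 count in liver and 0 elsewhere. The acyl carrier subunit NDUFAB1 had 0, 2, 1 and 0 counts, and NDUFA4L2, a paralog of NDUFA4, 1 count in muscle. Of these subunits outside the pattern CYC1 alone was counted well enough to compare.

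Among assembly factors 4 of 19 were called higher in muscle than in liver, near the 23.0% of all genes, and 2 with TMM scaling, beside 16.1%. In the opposite direction 0 of 13 were called (17.7% of all genes), and over oWAT 1 of 19 was higher in muscle (8.30%), or 3 with TMM scaling (12.3%). ATPAF1, an assembly factor of the ATP synthase head, had 53 counts in liver and 219 in muscle, with 61 in oWAT and 32 in sWAT. Like ATP5F1A it was highest in muscle and lowest in sWAT, 4.11-fold higher in muscle than in liver (3.03 to 5.66) and 5.97-fold higher than in sWAT (4.11 to 8.95). LRPPRC, which stabilises mitochondrial mRNAs, had 129, 139, 95 and 96 counts. ACAD9, of complex I assembly, had 38, 27, 37 and 42 and HIGD1A 31, 38, 31 and 31.

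Carriers and pores that exchange ATP, ADP and phosphate were listed with related carriers and CKMT2, a mitochondrial creatine kinase. Of this list 7 of 8 genes were called higher in muscle than in liver, beside 23.0% of all genes, and 6 with TMM scaling, beside 16.1%. CKMT2, with 109 counts in muscle and 0 elsewhere, was among the 7. In the opposite direction 1 of 5 was called, beside 17.7% of all genes. SLC25A4, the ADP/ATP carrier of muscle, had 28 counts in liver and 484 in muscle, with 35 in oWAT and 22 in sWAT, 17.2-fold higher in muscle than in liver (11.7 to 26.2). VDAC3 (28, 169, 55 and 48) and VDAC1 (32, 150, 29 and 28), channels of the outer membrane, were also highest in muscle. UCP3, a mitochondrial carrier of muscle, had 220 counts in muscle and 0 elsewhere, at least 64.0-fold higher than in sWAT when the floor of 3 counts stands in for 0, with an exact interval that starts at 51.6.

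Of 10 regulators of mitochondrial gene expression with 10 counts in muscle 0 were called higher there than in liver, beside 23.0% of all genes. In the opposite direction 0 of 10 were called, beside 17.7%, and 1 with TMM scaling, beside 21.8%. The list summed to 750 CPM in muscle, 750 in liver, 827 in oWAT and 672 in sWAT. POLRMT, the mitochondrial RNA polymerase, had 68, 88, 77 and 38 counts in liver, muscle, oWAT and sWAT, and POLG, the mitochondrial DNA polymerase, 53, 75, 60 and 58. PPARD had 8, 30, 32 and 32 counts and GABPA, a transcription factor of respiratory chain genes, 21, 9, 16 and 42. PPARGC1A, a coactivator of mitochondrial biogenesis, was highest in liver with 45, 12, 7 and 4 counts. None of the 26 spellings searched for the subunits encoded in mitochondrial DNA had a row in the files as analysed here, so nuclear and mitochondrial subunits were not compared.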

How the data were processed

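Gene counts of 4 libraries were used, 1 per tissue. The authors deposited raw whole-number counts for each gene, without normalization and only for genes with 1 count or more. The submitters' processing notes name minimap2 2.24. How reads were filtered, assigned to genes and stranded, and the build and annotation, are not given in any source used here, and reads shared with processed pseudogenes of subunit genes could be split or lost. Per the labels' protocols, RNA of 5 monkeys was pooled per library. Files named for other fat depots were assigned to oWAT and sWAT by the labels. The entry for counts that name no gene (14.3% to 19.5% of a file) was left out. Names not listed were taken as 0.

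Counts were scaled to library totals (CPM). Folds carry exact 95% Clopper-Pearson intervals and summed levels exact Poisson intervals; no molecular identifiers are stated, and both cover counting error only. The calling rule needs 10 counts and a lower bound above 2 and was tested on simulated data. Against 0, a floor of 3 counts was used. Log2 ratios used a pseudocount of 0.5. With 1 library per tissue no p-values were computed. Ratios and shares within a library were compared by their separate intervals, whose overlap does not show that the values are equal. Every member with at least 10 counts in a library was named, and up to 4 genes per other list by total counts, besides CYC1, CYCS, NDUFAB1, NDUFA4L2 and CS; 1 gene that this rule names is not reported here. Named outside that rule, after their values were seen, were SUCLG2, ETFDH, PPARGC1A, CIDEA, CKMT2 and some names without a row. The members, lists and rules were chosen with earlier results of these data known. The members' counts were to be set against protein length, which was not done because no table of lengths was used here. No sequences are printed. Alternatives were edgeR 4.0.16 TMM factors, DESeq2 1.42.0 size factors (both for scaling only), totals less the genes among the 10 most abundant in one or more libraries, other count minimums, a bound of 1, 99% intervals, and leaving out the most counted or the thinly counted members. R 4.3.3, Python 3.11.15, NumPy 2.4.6, pandas 2.3.3, SciPy 1.17.1 and matplotlib 3.10.9 were used.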

Additional observations from a re-analysis of the deposited data

How the results depend on the processing

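With 1 library per tissue no replicate could be left out, and no paired analysis was possible because each group is a single library. Over the 5 complexes and all members together, 36 summed folds were recomputed, and the called direction of the 6 folds over all members held under each scaling tried. At 99% confidence the intervals took in 1 for liver over oWAT summed over all members (1.14) and in complex V (1.18), and for muscle over sWAT in complex II (1.98) and complex IV (8.73).

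TMM and DESeq2 scaling gave calls that library totals did not. These were liver over oWAT in complex I (1.95 and 1.93) and complex III (2.23 and 2.20), liver over sWAT in complex I (1.95 and 1.88) and complex III (2.32 and 2.24), muscle over liver in complex II (0.479 and 0.479, and 0.617 with totals without the most abundant genes), and muscle over oWAT in complex II (2.16 and 2.14) and complex IV (4.44 and 4.40).

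Leaving out the most counted member ended the call for liver over oWAT over all members (1.11), in complex II (1.25) and in complex V (1.13), for liver over sWAT in complex II (2.41), for muscle over oWAT (1.20) and sWAT (1.16) in complex III, for muscle over sWAT in complex IV (3.49) and for muscle over liver in complex V (1.19). It turned the ratio of muscle to sWAT in complex II to 0.873 and that of muscle to liver in complex III to 0.362, on 4 to 11 counts. Fewer counts enter these ratios by construction. The cause of the other changes was not tested.

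The counts of called members moved with the bound and the scaling. Muscle over oWAT had 6 with TMM or DESeq2 scaling, 3 with totals without the most abundant genes, 0 at 99% and 7 with a bound of 1. The shares of all genes were 12.3% with TMM scaling and 17.6% with a bound of 1. No share of all genes is given for DESeq2 scaling, 99% intervals or totals without the most abundant genes. Those counts therefore have no background beside them. Muscle over sWAT had 4 with TMM or DESeq2 scaling (12.5% of all genes with TMM), 1 at 99% and 10 with a bound of 1 (21.2%). Liver over oWAT had 5 and liver over sWAT 4 with TMM scaling, with DESeq2 scaling and with a bound of 1. The shares of all genes were 20.5% and 20.6% with TMM scaling, and 20.5% and 22.3% with a bound of 1. A bound of 1 gave 7 for muscle over liver (48.1% of all genes) and 1 for liver over muscle (29.0%). It gave 1 each for oWAT over muscle (42.0%) and over liver (58.1%), and 2 for oWAT over sWAT (16.1%). Minimum counts of 5, 20 and none changed no count.

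Shares of member counts without the most counted member of the complex were, in liver, muscle, oWAT and sWAT, 18.3%, 19.97%, 23.4% and 27.0% for complex I, 1.40%, 0.30%, 1.24% and 0.826% for complex II, 1.41%, 0.324%, 0.492% and 0.656% for complex III, and 38.0%, 30.3%, 37.2% and 33.2% for complex V. Complex IV in muscle gave 0.295%. Leaving out members under 10 counts over the 4 libraries ended or turned no call in the 46 values that could be computed, since no member of complex IV reaches 10. Depth limits complex IV and the 34 members with under 10 counts in every library, and 3 counts equal 6.82 to 7.81 CPM.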
